A study of Homo sapiens with 9 samples.

Results

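The 9 genes described here are SOCS1, SOCS2, SOCS3, SOCS4, SOCS5 and SOCS6, which encode suppressors of cytokine signalling, the kinase genes PIM1 and PIM3, and STAT3. They were taken by gene symbol from a table of 62710 genes, and were chosen by their normalized counts in the 3 treatments as well as by their roles, since earlier results of these libraries were known. Their differences between treatments are therefore given as a description, and no p-value is attached to them. RNA was sequenced from A375R cells, a line derived from the human melanoma line A375 that is resistant to the BRAF inhibitor PLX4032. The study's methods give 2 µM PLX4032 as part of the culture medium of A375R. The sample names and the RNA sequencing methods do not mention the drug. Of the 9 libraries, 3 were from control cells, which the sample names call WT and the series text describes as given DMSO, the solvent. Another 3 were from cells given VHL-r at 10 µM for 2 h, and the last 3 from cells given R4VPL3-1 at 10 µM for 2 h. VHL-r is the part that binds VHL, the substrate receptor of a ubiquitin ligase, and R4VPL3-1 is the full PROTAC-like molecule, in which such a part is joined by a linker to a part that binds the ubiquitin ligase RNF4. All libraries were thus from 1 resistant line, at 1 dose and 1 time, and R4VPL3-1 and VHL-r form the only pair of compounds compared.

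Cytokines such as LIF and IL-6 bind receptors that carry Janus kinases (JAKs). The JAKs phosphorylate STAT proteins, which enter the nucleus and activate genes, among them those of the SOCS proteins and PIM kinases. SOCS proteins close a negative feedback loop. Each has an SH2 domain, which binds phosphotyrosine on receptors or kinases, and a SOCS box, which recruits Elongin B, Elongin C and the cullin CUL5 to build a ubiquitin ligase. SOCS1 and SOCS3 also block JAKs directly through a kinase inhibitory region. VHL binds the same Elongins through a related box, but works with another cullin. PIM kinases are serine/threonine kinases that promote survival and protein synthesis and need no phosphorylation for activity.

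Promoter sequences from RefSeq (GRCh38.p14) were available for 7 of the 9 genes, in windows from 250 bases before to 50 bases after a transcript start. SOCS3 had windows at 2 starts, and SOCS2 and SOCS5 had none. None of the 8 windows held the STAT motif TTCNNNGAA, searched on both strands, which 7.66% of 35116 promoters held. The AP-1 motif TGANTCA (7.71% of promoters) and the CRE motif TGACGTCA (1.85%) were not found in them either, and neither was the heat shock element made of GAA, any 2 bases, TTC, any 2 bases and GAA (0.49%). These windows are short, and the absence of a match says only that these letters were not in them. The 250 bases before the SOCS1 start, on the minus strand at chr16:11256205-11256454, are shown because SOCS1 had the largest fold difference among the 9 genes. Capitals mark GAAA, any 2 bases, GAAA, an interferon regulatory factor (IRF) type motif that was looked for after the sequence had been seen. It lay at positions -113 to -104 from the start, 3.57% of all promoters held it, and no window of another SOCS, PIM or STAT gene did. Since the motif was picked with this sequence in view, SOCS1 was bound to match, and nothing is read from the match.

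SOCS1: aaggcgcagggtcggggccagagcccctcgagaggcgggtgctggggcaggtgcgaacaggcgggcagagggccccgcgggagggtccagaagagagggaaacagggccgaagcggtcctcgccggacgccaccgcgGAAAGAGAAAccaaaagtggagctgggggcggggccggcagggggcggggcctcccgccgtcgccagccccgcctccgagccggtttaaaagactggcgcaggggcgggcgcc

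This stretch held 27 CG dinucleotides, against a median of 11 over all promoters, and 17.7% of promoters held as many or more. CISH, a SOCS paralog outside the 9 genes, is shown for contrast. Its window held 4 matches to TTCNNNGAA, a number that only 7 of the 35116 promoters (0.0199%) reached or passed. The matches formed 2 pairs on the minus strand of chromosome 3. Capitals mark the matches, and in each pair 1 match also fits the stricter form TTCCNGGAA (1.15% of promoters). The first window is chr3:50611991-50612020, at positions -246 to -217 from the start, and the second is chr3:50611876-50611905, at positions -131 to -102.

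CISH distal pair: ccgttTTCCTGGAAagTTCTTGGAAatctg

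CISH proximal pair: ggTTCTAGGAAgacgctgcTTCCGGGAAgg

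The deposited values were normalized counts, which are reads divided by a library's size factor. The reads they were made from numbered 26435568 to 32085626 per library. Of the melanoma markers, SOX10 (7900 at its lowest), AXL and VIM were high, while MLANA was at 0 and TYR near 0, so pigment cell markers were partly absent. The sum of the 11 melanoma markers was 125691 to 135551 with DMSO, 115089 to 123797 with VHL-r and 111632 to 115697 with R4VPL3-1. It was thus lower with both compounds. Most of it was VIM, while SOX10 had means of 17547, 10200 and 8405 and MITF of 1722, 1047 and 1011 with DMSO, VHL-r and R4VPL3-1. The sum of 3 keratinocyte markers was also lower with both compounds, at 346.3 to 383.2, 295.2 to 314.4 and 241.8 to 297.5 in the same order. Most of it was KRT14, with means of 346.8, 286.63 and 250.68. KRT5 had means of 17.38, 18.15 and 16.52, and KRT1 was at or near 0. The part of these markers in the results below was not tested. The sum of 3 markers of blood cells, in which cytokine genes are also active, was 10.9 to 25.6 with DMSO, 16.8 to 24.6 with VHL-r and 8.6 to 26.8 with R4VPL3-1, in overlapping ranges. Its genes did not move alike. In the same order, means were 7.44, 4.45 and 1.98 for PTPRC, 7.22, 15.65 and 14.48 for CD14, and 1.21, 1.7 and 1.26 for CD3E. All libraries were from 1 cultured line. In a bulk measurement, fewer cells with a transcript and less of that transcript per cell cannot be told apart.

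Differences are given as log2 fold changes of the normalized count plus 1, with the standard error (SE) from limma. A gene was called when its Benjamini-Hochberg adjusted p from limma was at most 0.05 over the 15230 genes with a mean normalized count of at least 10. Of the 9 genes, 8 passed that filter, and SOCS1 passed it only through the libraries given a compound. With VHL-r, 19.8% of all genes tested were called against DMSO, 10.3% higher and 9.51% lower. Among the 9 genes 4 were called: SOCS1 and SOCS3 higher, SOCS2 and SOCS6 lower. With R4VPL3-1 24.9% of all genes were called against DMSO, 13.1% higher and 11.8% lower. Here 3 of the 9 genes were called, SOCS1 higher and SOCS2 and SOCS6 lower. Between R4VPL3-1 and VHL-r 1.87% of all genes were called, 1.14% higher and 0.729% lower with R4VPL3-1. SOCS3 was the 1 of the 9 called there, and it was lower with R4VPL3-1. As these contrasts were known when the genes were chosen, nothing is read from the counts. The DMSO libraries were shared by the first 2 comparisons, and the median log2 fold change of all genes was between -0.0063 and -0.0045 in the 3 comparisons.

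SOCS1 (ENSG00000185338, chr16:11254417-11256204), a direct inhibitor of JAKs, was close to undetected in control cells and rose with both compounds. Its normalized counts were 5.45, 0 and 5.07 in the DMSO libraries. They were 42.03, 42.02 and 30.73 with VHL-r, and 41.08, 38.80 and 53.53 with R4VPL3-1. All 6 libraries given a compound lay above all 3 DMSO libraries, and the libraries of the compounds overlapped. Means were 3.51 ± 3.04, 38.3 ± 6.52 and 44.5 ± 7.93 (SD, n = 3). The log2 fold change was 3.52 (SE 0.49) with VHL-r and 3.73 (SE 0.49) with R4VPL3-1.

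The size of the SOCS1 difference rests on few reads. The DMSO libraries held 6, 0 and 5 reads, 11 in all, against 112 with VHL-r and 133 with R4VPL3-1. The ratio of pooled reads, scaled by size factors, was 10.8 with VHL-r (95% interval 5.81 to 22.2) and 12.5 with R4VPL3-1 (6.75 to 25.6), where the intervals cover counting error only. Without the DMSO library at 0, replicate 2, the log2 fold change was 2.64 with VHL-r and 2.85 with R4VPL3-1. With a pseudocount of 0.1 in place of 1 it was 4.74 and 4.96, and with a pseudocount of 5 it was 2.41 and 2.60. R4VPL3-1 and VHL-r differed by 0.21 (95% interval -0.80 to 1.23) for SOCS1, an interval that leaves room for a difference in either direction. Its SE of 0.49 came from the fit that also held the DMSO libraries. With only the 6 libraries compared, the SE was 0.22. The ratio of pooled reads between R4VPL3-1 and VHL-r was 1.155 (95% interval 0.8915 to 1.499, counting error only). That narrower interval also leaves room for either direction.

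SOCS2 (ENSG00000120833, chr12:93569814-93583487), which restrains growth hormone receptor signalling, fell with both compounds. Its normalized counts were 243.36, 257.77 and 250.47 with DMSO, 136.10, 153.37 and 121.88 with VHL-r, and 135.39, 157.19 and 118.83 with R4VPL3-1. Every library given a compound lay below every DMSO library. The log2 fold change was -0.87 (SE 0.13) with either compound, and the level was 1.83-fold lower with each. The compounds differed by -0.0028 (95% interval -0.27 to 0.26). 

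SOCS3 (ENSG00000184557, chr17:78356778-78360077), the main feedback inhibitor of gp130, the receptor chain shared by IL-6 and LIF, was the 1 gene of the 9 called between the compounds. Its normalized counts were 609.31, 528.33 and 543.54 with DMSO, 753.54, 757.38 and 919.75 with VHL-r, and 563.98, 661.61 and 674.47 with R4VPL3-1. All VHL-r libraries lay above all others, and the R4VPL3-1 and DMSO libraries overlapped. The log2 fold change against DMSO was 0.53 (SE 0.088) with VHL-r and 0.17 (SE 0.088, 95% interval -0.0098 to 0.36) with R4VPL3-1. SOCS3 was thus 1.28-fold lower with R4VPL3-1 than with VHL-r (-0.35 on the log2 scale, SE 0.088, 95% interval -0.54 to -0.17). That call was lost when R4VPL3-1 replicate 1 or 2, or VHL-r replicate 2 or 3, was left out, and the difference then lay between -0.26 and -0.40.

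SOCS6 (ENSG00000170677, chr18:70289045-70330199), a member with a long N-terminal region that acts on receptor tyrosine kinases, fell with both compounds. Normalized counts were 997.96, 1033.04 and 1054.62 with DMSO, 817.58, 757.38 and 774.31 with VHL-r, and 797.41, 745.18 and 747.27 with R4VPL3-1. The DMSO libraries lay above all the others without overlap. With VHL-r the log2 fold change was -0.39 (SE 0.062), with R4VPL3-1 -0.43 (SE 0.062), and the compounds differed by -0.037 (95% interval -0.17 to 0.092).

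SOCS4 (ENSG00000180008, chr14:55027230-55049489), which acts on the EGF receptor, was called in none of the comparisons. Its normalized counts were 1232.24 to 1334.50 with DMSO, 1150.20 to 1340.96 with VHL-r and 1193.70 to 1397.81 with R4VPL3-1. Log2 fold changes were -0.0070 and 0.0011 against DMSO and 0.0082 between the compounds (SE 0.069 for each). SOCS5 (ENSG00000171150, chr2:46698952-46780245), its closest paralog, was listed at 0 in all 9 libraries. A long noncoding RNA gene on the same strand, LINC01118 (chr2:46698940-46822804), spans SOCS5 and had normalized counts of 0.91 to 6.08. In the GENCODE 44 annotation, 2.14% of the SOCS5 exon bases are shared with genes on the same strand, LINC01118 among them. UBE2F, a gene that most cells use, was also listed at 0, so the value of SOCS5 is given as listed and no absence is read from it.

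PIM1, PIM3 and STAT3 were called in none of the comparisons. PIM1 (ENSG00000137193, chr6:37170152-37175428), the best known STAT target among the kinases, had normalized counts of 466.47 to 595.69 with DMSO, 531.53 to 548.39 with VHL-r and 493.95 to 566.10 with R4VPL3-1. Its log2 fold change was 0.071 with VHL-r and 0.020 with R4VPL3-1 (SE 0.087). PIM3 (ENSG00000198355, chr22:49960768-49964072) ranged from 1937.20 to 2013.17 with DMSO, 1982.41 to 2218.46 with VHL-r and 1890.65 to 2032.58 with R4VPL3-1. Its log2 fold change was 0.12 with VHL-r (SE 0.053) and -0.0047 with R4VPL3-1, and it passed the test with VHL-r only when VHL-r replicate 1 was left out. STAT3 (ENSG00000168610, chr17:42313324-42388540), the transcription factor below gp130, ranged from 3744.54 to 3779.40 with DMSO, 3683.63 to 3945.29 with VHL-r and 3509.93 to 3871.15 with R4VPL3-1. Its log2 fold change was 0.033 and -0.024 (SE 0.047). The 95% intervals of the difference between the compounds were -0.23 to 0.13 for PIM1, -0.23 to -0.0095 for PIM3, -0.16 to 0.041 for STAT3 and -0.14 to 0.15 for SOCS4. The groups overlapped for each of these 4 genes.

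**Figure D1:**
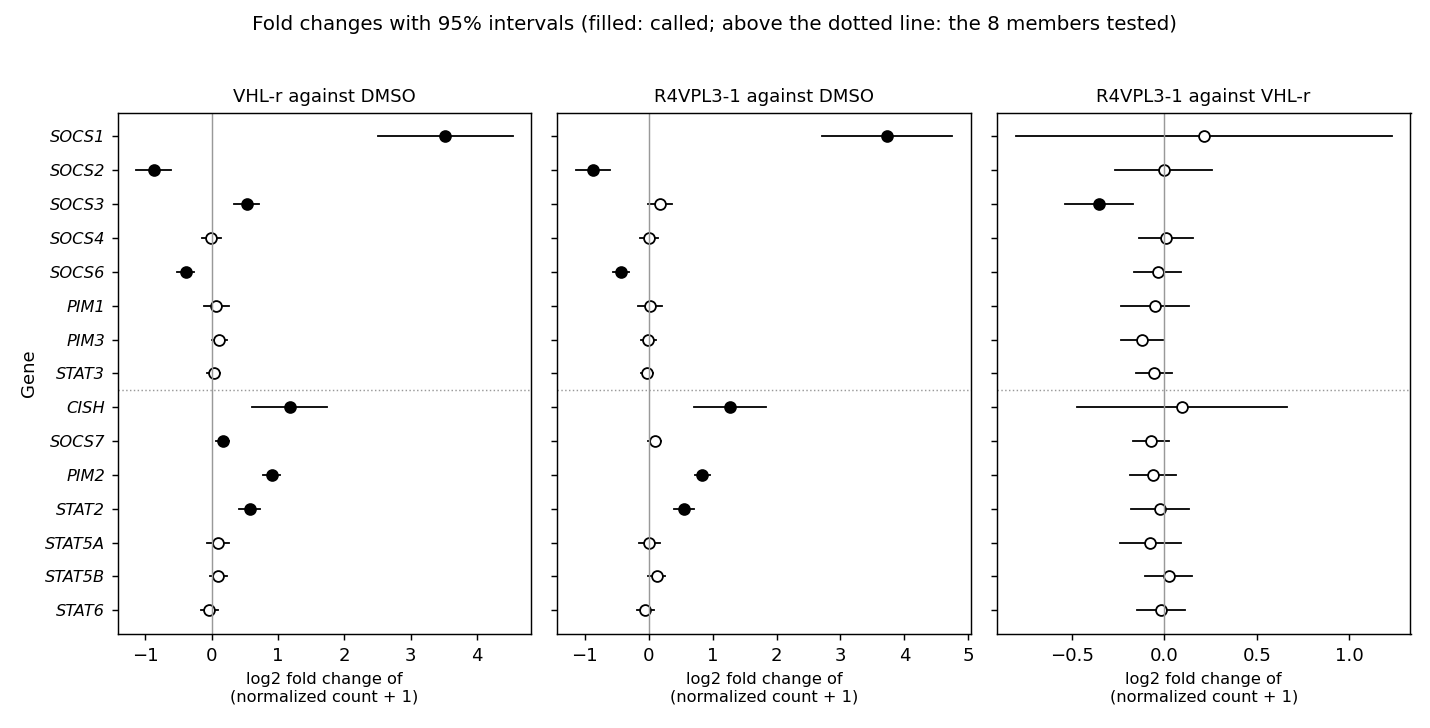
Log2 fold changes (horizontal axes, of the normalized count plus 1) with 95% intervals in the 3 comparisons for the 8 genes tested (above the dotted line) and 7 paralogs (below it); filled points were called. SOCS1 stands at 3.52 and 3.73 against DMSO, and SOCS3 is the only filled point between the compounds.

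Levels can be compared between genes only per length, so normalized counts were divided by kilobases of exon. The length was that of all annotated exons of a gene together, such as 1788 bases for SOCS1, 2198 for PIM3, 6477 for SOCS2 and 11208 for STAT3. It can exceed the length of the transcripts in use, which was not measured, so the order between genes is approximate. In DMSO libraries PIM3 stood highest at 893 ± 19.6 (SD, n = 3), followed by STAT3 at 336 ± 1.6 and SOCS3 at 205 ± 15.7. SOCS4 (180 ± 8.28), SOCS6 (176 ± 4.9) and PIM1 (171 ± 22.7) came next with overlapping libraries, and PIM1 also overlapped SOCS3. SOCS2 had 38.7 ± 1.11 and SOCS1 1.96 ± 1.70. With the compounds the lower end of this order was altered. SOCS1 was at 21.4 ± 3.65 and SOCS2 at 21.2 ± 2.43 with VHL-r, and at 24.9 ± 4.43 and 21.2 ± 2.97 with R4VPL3-1, so that their libraries overlapped. SOCS6, at 134 ± 5.32 and 131 ± 5.06 per kilobase, lay below SOCS4 and PIM1, which overlapped each other with both compounds. SOCS3, at 296 ± 34.7 with VHL-r, overlapped STAT3 at 344 ± 13.1 there, and lay between STAT3 and SOCS4 without overlap with R4VPL3-1, at 232 ± 22.1.

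For each gene the 3 whose values were most like it over the 9 libraries were found by Pearson's r of log2 values. These are descriptions over libraries that share their treatments and depth. SOCS1 was most like CASTOR2 (r = 0.982), SOCS2 most like TIGD5 (0.984), SOCS3 most like PCDH9 (0.967) and SOCS6 most like ZBTB26 (0.993). For genes that were not called, the closest were NKTR for SOCS4 (0.952), APLN for PIM1 (0.967), ARMC5 for PIM3 (0.951) and DHX8 for STAT3 (0.959). For PIM1 the second was NCL (0.951) and the third RNF4 (0.927), named because R4VPL3-1 was designed to bind its protein. PIM1 was called in none of the comparisons, and a link between it and RNF4 was not tested.

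The paralogs and the other genes of the pathway were read from the same fit. Their lists were put together with an earlier account of these libraries known, which held LIF, BCL3 and VEGFA, so those 3 genes are given with no p-value, and the p-values of the others are not independent evidence. Of 8 paralogs listed, 7 had enough reads, and 4 were called higher with VHL-r, 3 with R4VPL3-1 and none lower, where 10.3% and 13.1% of all genes tested were called higher. Between the compounds none was called by limma, edgeR or DESeq2, and none had an unadjusted p under 0.05. The median log2 fold change of the 7 was 0.167 with VHL-r and 0.124 with R4VPL3-1, against -0.0045 and -0.0063 over all genes. The paralogs come from what the 9 genes left of their families, so nothing is read from their counts or median. Among the 9 genes, SOCS2 and SOCS6 were called lower with both compounds, SOCS1 higher with both and SOCS3 higher with VHL-r.

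CISH (ENSG00000114737, chr3:50606489-50611774), the STAT5-induced inhibitor whose promoter is shown above, rose with both compounds. Its normalized counts were 13.62, 18.69 and 21.30 with DMSO, 26.02, 49.37 and 53.26 with VHL-r, and 48.55, 36.81 and 47.11 with R4VPL3-1. The log2 fold change was 1.17 (SE 0.27, limma adjusted p = 0.00354) with VHL-r and 1.27 (SE 0.27, adjusted p = 0.00142) with R4VPL3-1. VHL-r replicate 1 stood nearest to the controls. SOCS2, which is also known as a STAT5 target, went the other way with each compound.

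PIM2 (ENSG00000102096, chrX:48913182-48919024), the paralog of PIM1 and PIM3, had normalized counts of 894.44, 778.23 and 880.20 with DMSO. It was at 1586.13, 1585.14 and 1590.61 with VHL-r and at 1563.08, 1514.24 and 1490.25 with R4VPL3-1, without overlap with DMSO. It rose by 0.90 on the log2 scale (SE 0.059, limma adjusted p = 5.58e-10) with VHL-r and 0.84 (SE 0.059, adjusted p = 8.32e-10) with R4VPL3-1. PIM2 was the only PIM gene called in these comparisons.

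STAT2 (ENSG00000170581, chr12:56341597-56360203), a transcription factor activated by type I interferon, rose from 738.25, 744.77 and 839.64 with DMSO to 1080.77, 1091.43 and 1287.44 with VHL-r and 1177.45, 1176.97 and 1042.75 with R4VPL3-1. On the log2 scale the rise was 0.57 (SE 0.076, limma adjusted p = 1.04e-05) and 0.55 (SE 0.076, adjusted p = 1.21e-05). SOCS7 was called with VHL-r at a smaller size, 0.17 on the log2 scale (limma adjusted p = 0.0157), and that call was lost in some fits without 1 library. STAT5A, STAT5B and STAT6 were called nowhere, and STAT4 had too few reads to test.

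Among 15 ligands of the pathway 9 could be tested, and 5 were called lower with VHL-r and 4 with R4VPL3-1, with none higher, where 9.51% and 11.8% of all genes were called lower. Their median log2 fold change was -0.839 and -0.582. LIF (ENSG00000128342), which signals through gp130, had normalized counts of 5050.64, 3526.12 and 2958.01 with DMSO, 1016.73, 1116.64 and 767.14 with VHL-r, and 476.21, 637.73 and 524.58 with R4VPL3-1. The 3 groups did not overlap. LIF fell, with a log2 fold change of -1.97 with VHL-r and -2.79 with R4VPL3-1 (SE 0.15). The difference of -0.82 between the compounds was called, but not when limma was run robustly. IL10 had log2 fold changes of -1.83 and -2.46, CSF2 of -1.25 and -1.86, and IL24 of -0.84 and -1.08, all called with both compounds. IL10 passed the filter on low values only through the DMSO libraries, with means of 32.1 with DMSO, 9.29 with VHL-r and 4.98 with R4VPL3-1. CLCF1 had a log2 fold change of -0.97 with VHL-r (limma adjusted p = 0.0484), and this call, the 1 by which the counts with VHL-r and R4VPL3-1 differ, was lost by DESeq2, under TMM and without any 1 of the 6 libraries compared (adjusted p up to 0.173).

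Of 27 receptor genes 18 were tested. With VHL-r 2 were called higher and 3 lower, with R4VPL3-1 1 higher and 4 lower, and between the compounds none by limma, edgeR or DESeq2, with 2 at an unadjusted p under 0.05. The shares called over all genes tested were 19.8% with VHL-r, 24.9% with R4VPL3-1 and 1.87% between the compounds. Nothing is read from the receptor counts. IL7R fell from a mean of 824 ± 34.1 (SD, n = 3) to 471 ± 8.02 with VHL-r and 502 ± 24.6 with R4VPL3-1 (log2 fold changes -0.80 and -0.72). IFNGR2, a chain of the interferon gamma receptor, fell with both (-0.40 and -0.52). IFNLR1 also fell with both (-0.68 and -0.64), calls that were lost without DMSO replicate 3 and, for R4VPL3-1, also without R4VPL3-1 replicate 3. EPOR, the erythropoietin receptor, rose by 0.49 and 0.67. LIFR, the receptor of LIF and named here after its values were seen, was called higher with VHL-r (0.27).

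Of the 4 JAKs, the kinases between receptor and STAT, none was called with VHL-r by limma, edgeR or DESeq2, although 3 had an unadjusted p under 0.05. JAK2 was called with R4VPL3-1 (0.29, SE 0.077, limma adjusted p = 0.00773), and that call was lost without R4VPL3-1 replicate 1 (adjusted p = 0.0575). Between the compounds no JAK was called by limma, edgeR or DESeq2, and none had an unadjusted p under 0.05. Of 12 other inhibitors, 2 were called higher and 1 lower with each compound, where 19.8% and 24.9% of all genes were called in either direction. Nothing is read from these counts. SH2B3, the adaptor also called LNK that restrains JAK2, fell from 5868 ± 91.4 to 4564 ± 154 with VHL-r and 3731 ± 216 with R4VPL3-1, and the 3 groups did not overlap. Its log2 fold change was -0.36 with VHL-r (SE 0.047, limma adjusted p = 9.05e-06), -0.65 with R4VPL3-1 (adjusted p = 1.40e-09) and -0.29 between the compounds (adjusted p = 7.27e-04). CBL and PIAS3 rose with both compounds, by 0.21 and 0.23 and by 0.27 and 0.22. The 5 partners of the SOCS box that were tested, the Elongins, CUL5, RNF7 and ARIH2, were called in none of the comparisons by limma, edgeR or DESeq2, and none had an unadjusted p under 0.05.

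Genes known as targets of STAT3 were called in both directions. Of 18 tested, 4 were called higher and 8 lower with VHL-r, and 6 higher and 8 lower with R4VPL3-1, with median log2 fold changes of -0.1 and -0.099. Over all genes tested, 10.3% were called higher and 9.51% lower with VHL-r, and 13.1% higher and 11.8% lower with R4VPL3-1. ZFP36, which destabilises cytokine mRNAs, had means of 580 ± 43.3 with DMSO, 1103 ± 91.2 with VHL-r and 1863 ± 259 (SD, n = 3) with R4VPL3-1. It rose by 0.93 and 1.67 on the log2 scale, and was 0.75 higher with R4VPL3-1 than with VHL-r (limma adjusted p = 1.14e-05). MYC fell, with log2 fold changes of -1.54 and -1.77. JUNB rose by 0.86 and 0.73. BCL3, a cofactor of NF-κB, fell with both compounds (-0.61 and -1.16) and was lower with R4VPL3-1 than with VHL-r (-0.55). VEGFA was called higher with R4VPL3-1 against both DMSO (0.32) and VHL-r (0.44). IRF1, named after its values were seen because its protein family binds the motif shown for SOCS1, rose by 0.57 with VHL-r and 0.46 with R4VPL3-1. A link between IRF1 and SOCS1 was not tested.

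Of 16 targets of interferon tested, 2 were called lower with each compound and none higher, where 19.8% and 24.9% of all genes were called in either direction, with medians of -0.062 and -0.128. The 2 were GBP1 (-0.43 and -0.56) and IFIT3 (-0.28 and -0.49), and the IFIT3 call with VHL-r was lost in several fits without 1 library. Between the compounds none was called by limma, edgeR or DESeq2, and 2 had an unadjusted p under 0.05. Over all 112 listed genes besides the 9, 89 were tested, and 12 were called higher and 19 lower with VHL-r, against 13 and 19 with R4VPL3-1. Of all genes tested, 10.3% were called higher and 9.51% lower with VHL-r, and 13.1% and 11.8% with R4VPL3-1. Between the compounds 2 listed genes were called higher and 3 lower with R4VPL3-1, against 1.14% and 0.729% of all genes.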

How the data were processed

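Poly(A) RNA of A375R cells was made into directional libraries, per the study's methods from independent biological repeats, and sequenced as single reads. Reads were mapped by the authors with STAR (GRCh38), counted per Ensembl gene with htseq-count with strand taken into account, and deposited as a signal, reads divided by a DESeq2 (1.36.0) size factor, as 1 table. Groups came from the sample labels. The submitters' control label, WT, was read as DMSO from the series text. The values of all libraries came out as whole reads (100% within 0.1 read), 28165279 per library at the median, so a gene with few reads, such as SOCS1, has wide counting error. No 2 libraries agreed within sampling noise.

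Values were tested as log2(value + 1) with limma 3.58.1 (trend option, R 4.3.3), 1 factor with 3 levels, on all 9 libraries and 15230 genes with a mean of at least 10. P-values were two-sided and Benjamini-Hochberg adjusted, with a threshold of 0.05. Counts recovered from the deposited values were also tested with edgeR 4.0.16 and DESeq2 1.42.0. Other alternatives were TMM rescaling, pseudocounts of 0.1 and 5, other filters, limma's robust option, fits of 6 libraries, a replicate block and fits without each library. The fit was tested on simulated data. Pathway genes were named as the 4 largest called per list and comparison, plus the paralogs, with IRF1 and LIFR added after their values were seen. Some genes are not reported here. Exon lengths were from GENCODE 44, and promoters from RefSeq. The 9 genes and the lists were chosen with earlier results of these data known.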

Additional observations from a re-analysis of the deposited data

How the results depend on the processing

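The 9 genes' call counts against DMSO stayed within 1.5 times of those given under all alternatives run, at 4 to 5 with VHL-r and 3 with R4VPL3-1 without each library in turn. Between R4VPL3-1 and VHL-r the count was 1 (SOCS3). It was 0 at an adjusted p of at most 0.01 and with no filter on low values, and it was 0 to 1 without each library in turn. The cause was not tested. Signs reversed only for values near 0. PIM3 with R4VPL3-1 against DMSO was 0.0048 under TMM and 0.0052 by edgeR, and SOCS2 between the compounds was 0.0049 by DESeq2, 0.0028 under TMM and 0.0089 by edgeR. Without each library in turn, SOCS4 lay between -0.052 and 0.059 with VHL-r, -0.070 and 0.044 with R4VPL3-1, and -0.063 and 0.053 between the compounds. For R4VPL3-1 against DMSO the ranges were -0.051 to 0.13 for PIM1, -0.032 to 0.020 for PIM3 and -0.056 to 0.014 for STAT3, and SOCS2 between the compounds lay between -0.11 and 0.095. A mean of at least 50 left SOCS1 untested. SOCS1 was limited by its reads in control cells.

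Replicate numbers are shared by the groups. Deviations of libraries with the same number correlated at -0.006 to 0.121, and those of libraries with different numbers in other groups at -0.148 to 0.098. These ranges overlap, so they do not decide whether the numbers pair the libraries, and the main fit left the numbers out. A fit with the numbers as a block was run as an alternative. With the replicate block, the calls among the 9 genes numbered 4, 3 and 1, and all genes called numbered 3451, 4241 and 389, in the order VHL-r against DMSO, R4VPL3-1 against DMSO and R4VPL3-1 against VHL-r. All genes called in the main fit numbered 3016, 3792 and 285 in that order.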

Other observations

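Some genes of the pathway had too few reads to test, and their normalized counts are given as values. IL6, the founding ligand of gp130, was at 11.8, 8.85 and 13.18 with DMSO, at 1, 0 and 2.05 with VHL-r, and at 2.8, 4.97 and 2.14 with R4VPL3-1. IRF9, the DNA-binding partner of STAT2, was at 7.26, 3.94 and 3.04 with DMSO, at 12.01, 11.56 and 9.22 with VHL-r, and at 12.14, 8.95 and 6.42 with R4VPL3-1. Both genes were chosen after their values were seen. Besides SOCS5, 9 listed genes were at 0 in all libraries, among them IL11RA, IFITM1 and UBE2F.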
